A study of Mus musculus with 6 samples.

Results

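A set of 34 genes was readable in every WT osteoblast library and had a mean of less than 1 CPM (count per 1000000 counts of the library) in the TCKO libraries, which came from mice with a conditional knockout of all 3 Tet genes. The genes were chosen by their measured levels in both genotypes. A gene belonged to the set when it lay on chromosomes 1 to 19, had at least 2 CPM in each of the 3 WT libraries, and had a mean of less than 1 CPM over the 3 TCKO libraries. Of the 55471 genes in the count table, 11792 reached 2 CPM in each WT library, and 34 of these met the TCKO limit. The opposite rule, with the genotypes exchanged, was met by 56 genes. Because the genotype difference chose these genes, their levels in both genotypes are given as a description and were not tested.

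TET enzymes oxidise 5-methylcytosine in DNA, most of which lies in CpG dinucleotides, and thereby start its removal. Many promoters in mammals carry CpG islands, stretches rich in CpG that are mostly free of methylation, whereas promoters with few CpG are more often methylated in tissues that do not use the gene. Calvarial osteoblasts arise in the skull mesenchyme by intramembranous ossification and lay down the collagen matrix of flat bones.

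Poly(A) RNA of primary osteoblasts from 3-day-old mice on a C57BL/6 background, harvested after 3 days of culture, was sequenced, with 3 libraries for each genotype. TCKO mice carried Prx1-Cre and Tet1fl/fl, Tet2fl/fl and Tet3fl/fl, and the control animals were labelled wild type, with no further allele given. Prx1-Cre is active in the mesenchyme of the limb and part of the skull, so other cells of a parietal bone digest keep their Tet genes. Whether a library came from one animal or several is not stated, and p-values measure only the spread between these libraries.

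The libraries held 8019999 to 10177214 counts, so that 1 CPM corresponded to 8.02 to 10.2 counts, and 3 counts, the most that a library with 0 counts allows, to 0.295 to 0.374 CPM. These limits cover counting error only. Replicate 3 stood apart from replicates 1 and 2 in both genotypes. Replicates 1 and 2 differed by a chi-square of 1.69 per gene in WT and 2.04 in TCKO, against 16.5 to 23.3 for every pair that held replicate 3, and mitochondrial genes took 2.22% and 2.47% of counts in replicate 3 of WT and TCKO against 1.11% to 1.24% in the other libraries. Replicates 1 and 2 of each genotype were so alike that they may not be separate animals, so n = 3 counts libraries, and if they are not separate the p-values are too small. Counts of calls are therefore also given with these replicates summed into 1 library. TCKO replicate 3 also had 4583 counts of Xist and 0 of Ddx3y, whereas the other 5 libraries had 1 to 4 counts of Xist and at least 675 of Ddx3y. Of the targeted genes, Tet1 was lower in TCKO by 0.97 ± 0.16 on the log2 scale (SE; edgeR adjusted p = 0.00648), Tet2 showed a log2 fold change of -0.14 ± 0.14 (adjusted p = 0.545), and Tet3 was higher by 0.51 ± 0.09 (adjusted p = 0.00745). Neither Tet1 nor Tet3 passed with replicates 1 and 2 summed (edgeR adjusted p = 0.0797 and 0.0878). These are counts over whole genes, so they cannot show whether the floxed parts were lost. The authors tested the knockout by RT-qPCR. By immunofluorescence they reported more 5-methylcytosine and less of its oxidised form in limb and calvarial bone of TCKO mice. Among osteoblast markers, Col1a1 and Sparc, the main collagen and a major glycoprotein of bone matrix, were abundant in both genotypes, at 22046 and 9751 CPM in WT and 14686 and 5140 CPM in TCKO. The late markers Bglap, Dmp1 and Sost had at most 3 counts in any library.

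Promoter sequences are shown for 5 of the genes, to set CpG-rich beside CpG-poor examples. Each runs from 250 bases before to 50 bases after the RefSeq transcription start, 5′ to 3′ on the strand of the gene, with every CG in capitals (RefSeq, GRCm38.p6). Dio3os (chr12:110278019-110278318, minus strand) had 53 CG in 300 bases, and Fzd10 (chr5:128600856-128601155, plus strand) had 45. The window of Gm26633 (chr7:79053274-79053573, minus strand) had 23 CG and took in the start of Acan, at 79053483 on the opposite strand. Tlr1 (chr5:64933509-64933808, minus strand) had 3 CG, and Gpr141 (chr13:19824208-19824507, minus strand) had 2.
Dio3os: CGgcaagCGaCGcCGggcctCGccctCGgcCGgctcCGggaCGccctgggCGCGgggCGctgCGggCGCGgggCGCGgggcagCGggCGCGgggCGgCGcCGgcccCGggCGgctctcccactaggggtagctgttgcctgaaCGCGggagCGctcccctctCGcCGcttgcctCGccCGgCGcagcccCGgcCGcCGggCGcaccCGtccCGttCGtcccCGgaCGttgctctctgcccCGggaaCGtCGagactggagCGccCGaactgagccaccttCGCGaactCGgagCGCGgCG
Fzd10: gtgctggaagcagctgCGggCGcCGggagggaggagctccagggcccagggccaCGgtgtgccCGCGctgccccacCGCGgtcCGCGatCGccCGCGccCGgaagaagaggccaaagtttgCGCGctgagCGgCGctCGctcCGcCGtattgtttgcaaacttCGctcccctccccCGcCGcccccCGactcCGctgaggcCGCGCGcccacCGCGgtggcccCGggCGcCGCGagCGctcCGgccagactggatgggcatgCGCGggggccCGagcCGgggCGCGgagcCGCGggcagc
Gm26633: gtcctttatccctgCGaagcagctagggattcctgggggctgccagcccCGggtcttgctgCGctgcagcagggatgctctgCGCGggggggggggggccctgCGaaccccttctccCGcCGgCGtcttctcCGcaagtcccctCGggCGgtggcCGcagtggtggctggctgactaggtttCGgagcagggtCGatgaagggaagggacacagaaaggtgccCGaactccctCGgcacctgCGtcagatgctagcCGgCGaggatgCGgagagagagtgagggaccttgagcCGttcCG
Tlr1: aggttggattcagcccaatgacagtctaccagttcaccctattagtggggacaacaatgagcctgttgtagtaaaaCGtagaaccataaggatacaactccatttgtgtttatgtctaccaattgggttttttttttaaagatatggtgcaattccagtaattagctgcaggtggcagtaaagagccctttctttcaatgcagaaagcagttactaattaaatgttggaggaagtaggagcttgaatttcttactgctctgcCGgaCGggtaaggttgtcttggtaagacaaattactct
Gpr141: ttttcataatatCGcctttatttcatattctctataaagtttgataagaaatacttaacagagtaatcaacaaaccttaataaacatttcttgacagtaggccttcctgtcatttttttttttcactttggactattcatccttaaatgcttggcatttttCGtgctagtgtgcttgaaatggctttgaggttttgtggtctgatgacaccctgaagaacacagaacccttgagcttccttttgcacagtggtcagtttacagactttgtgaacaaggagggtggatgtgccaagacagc

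The 34 genes were low in WT cells. This follows in part from the rule, since a gene with a higher WT level needs a larger fold difference to have a TCKO mean under 1 CPM. Their mean WT level had a median of 3.42 CPM, against 29.4 CPM for all 11792 genes at 2 CPM or more in each WT library, and 26 of them (76.5%) lay under 5 CPM, against 9.16% of those genes. Per length of transcript the median was 0.943 RPKM (counts per kilobase of exon in a library of 1000000) against 6.82 RPKM, and the range ran from 0.160 RPKM for Fry to 6.91 RPKM for G0s2. In sum they took 182, 185 and 147 CPM in WT replicates 1, 2 and 3 and 28.5, 22.8 and 22.6 CPM in TCKO, which was at most 0.0185% of the counts of a WT library. WT counts per gene and library ran from 17 to 190, and TCKO counts from 0 to 13.

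The genes were low in TCKO but not absent. No gene of the set had fewer than 4 counts summed over the TCKO libraries, and 2 genes, Dio3os and Dlg2, had a single TCKO library at 0. In 11 genes all TCKO libraries were under 1 CPM, while in the other 23 at least 1 library reached it, up to 1.62 CPM. With the TCKO counts pooled, the exact 95% Poisson interval lay wholly under 1 CPM for 8 genes. The ratio of mean WT to mean TCKO CPM had a median of 5.14 and ran from 2.57 to 38.7, with 9 genes over 10 and 11 under 4. The edgeR fit over all 13826 tested genes, in which 3.19% were called lower in TCKO, tested all 34, but its result for them follows from the rule and is not given.

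**Figure D1:**
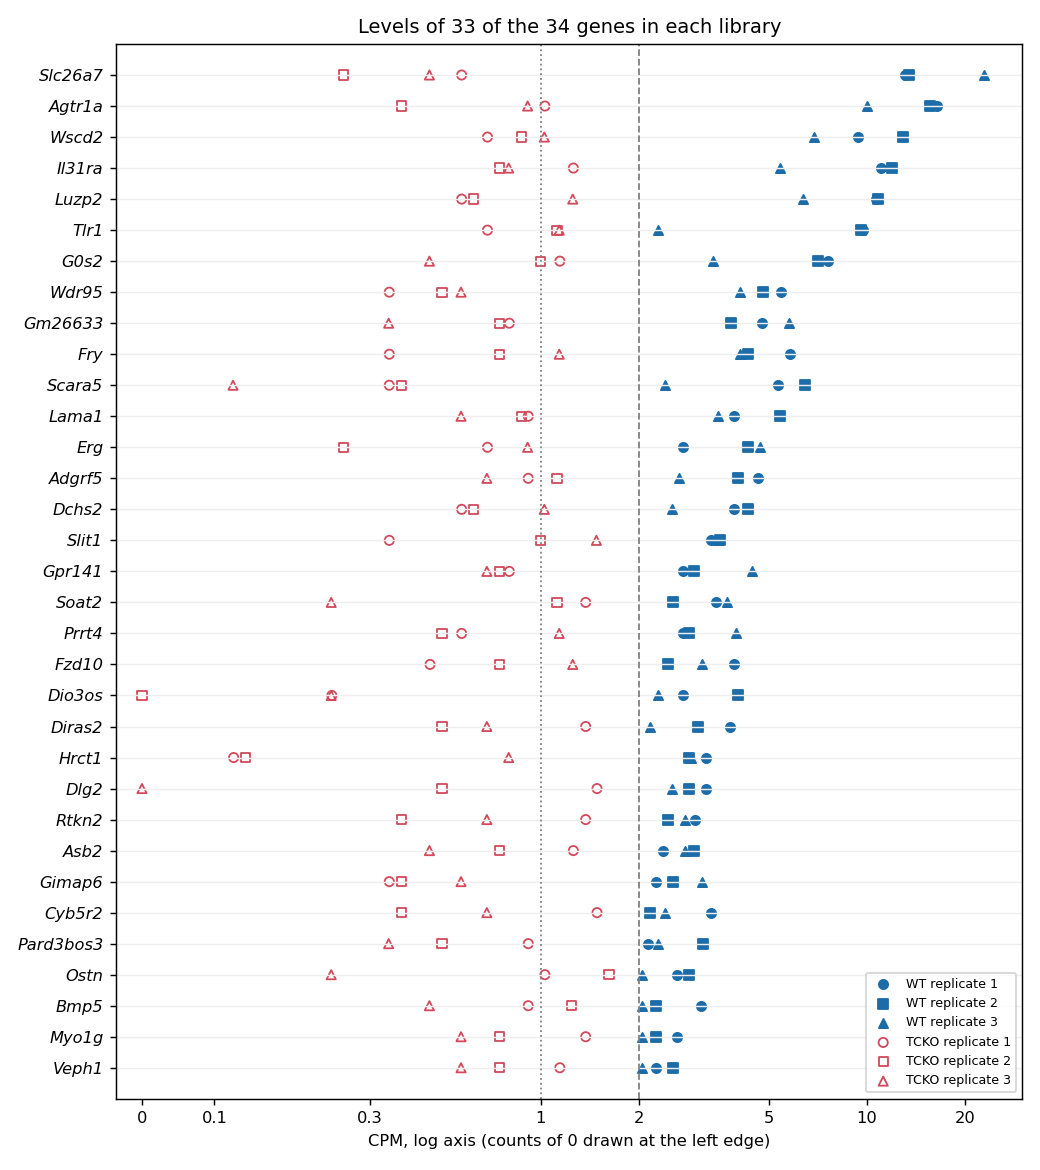
CPM of 33 of the 34 genes in each library on a log axis, ordered by mean WT level, with filled blue symbols for WT, open red symbols for TCKO and the shape giving the replicate; the dotted and dashed lines mark the limits of 1 and 2 CPM. WT levels run from just over 2 CPM to 22.9 CPM, and TCKO levels scatter around and below 1 CPM down to libraries with 0 counts.

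Several genes sat at a limit. Just inside the TCKO limit were Tlr1 (0.983 CPM), Ostn (0.960 CPM) and Slit1 (0.941 CPM), and just outside it were Ecm2, a matrix protein (1.02 CPM), St14, a membrane protease (1.03 CPM), and Col10a1, the collagen of hypertrophic cartilage (1.05 CPM). On the WT side, Veph1, Bmp5 and Myo1g passed with 17 counts, or 2.05 CPM, in WT replicate 3. Dok2 (1.97 CPM), Sprn (1.93 CPM) and the non-coding Gm15222 (1.93 CPM) missed it. There were 50 genes with a TCKO mean of 1 to 1.5 CPM that otherwise passed, and 31 whose lowest WT library was at 1.5 to 2 CPM, so the set is one slice of a continuous range.

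Trp63, the p53-family transcription factor of stratified epithelium and limb ectoderm that was given as a marker of the set, did not meet the rule. It had 30, 52 and 13 counts in the WT libraries against 1, 0 and 0 in the TCKO libraries. WT replicate 3 was thus at 1.57 CPM, under the limit of 2 CPM, although the TCKO mean of 0.0382 CPM was under that of any of the 34 genes. Trp63 entered the set when the WT mean, rather than each WT library, had to reach 2 CPM (76 genes), when the WT limit was 1 CPM (159 genes), and when WT replicate 3 was left out (58 genes). Its family member Trp53 had a log2 fold change of 0.09 and was not called, and Trp73 was too low to be tested. Of the 6 tested epithelial markers, 0 were called lower and Krt19 was called higher in TCKO (log2 fold change 1.47 ± 0.38, SE; edgeR adjusted p = 0.0328), with 52, 55 and 80 counts in the WT libraries against 119, 113 and 280 in the TCKO libraries. Krt19 lost its call without WT replicate 1 or 2 (adjusted p = 0.121 and 0.127) and with replicates 1 and 2 summed (0.165), and without TCKO replicate 3 its log2 fold change of 0.96 was under the fold limit. Krt14 had 0 counts in every library and Krt5 at most 2. Whether the Trp63 counts came from osteoblasts or from a few other cells was not tested, and in bulk RNA fewer cells of a type cannot be told apart from less RNA per cell.

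**Figure D2:**
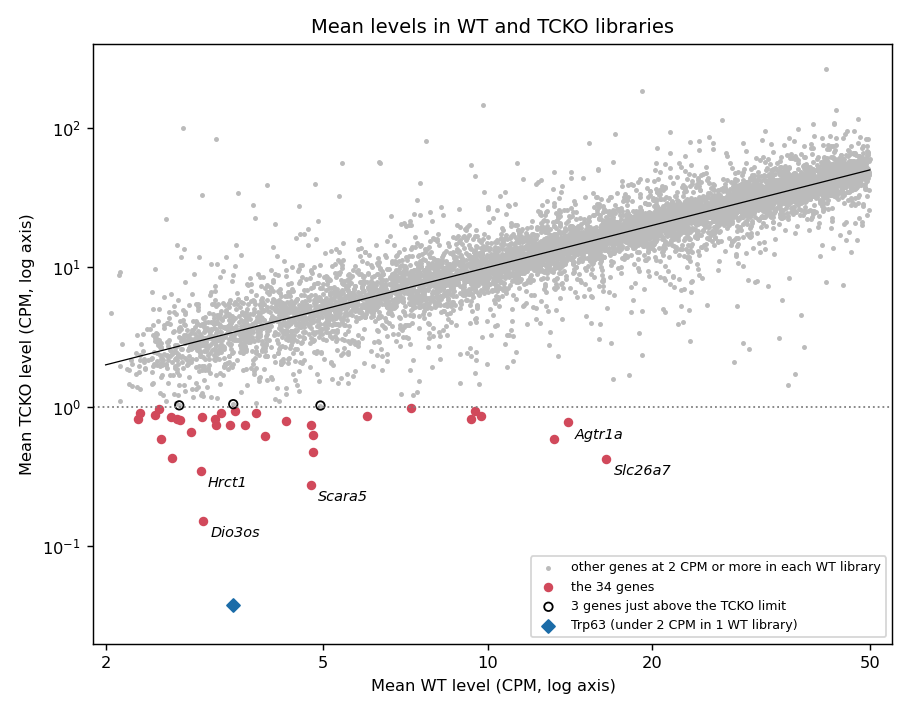
Mean TCKO level against mean WT level, both in CPM on log axes, for genes at 2 CPM or more in each WT library with a WT mean up to 50 CPM; the line marks equal levels and the dotted line 1 CPM in TCKO. The 34 genes (red) lie below 1 CPM in TCKO and mostly under 5 CPM in WT, with Slc26a7 highest at 16.5 CPM, and Trp63 (blue) has a lower TCKO mean than all of them.

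By function, cell-surface receptors formed a large class, with 8 genes. Their mean WT levels ran from 3.17 to 14.0 CPM and their TCKO means from 0.277 to 0.983 CPM. Agtr1a, the type 1 receptor of angiotensin II, gave 138, 159 and 83 counts in WT replicates 1, 2 and 3, against 9, 3 and 8 in TCKO. That was 14.0 ± 3.49 CPM (SD, n = 3) in WT against 0.773 ± 0.350 CPM in TCKO, an 18.1-fold difference of the means. Its near copy on chromosome 3, Agtr1b, had 49, 53 and 8 counts in the WT libraries against 1, 1 and 0 in the TCKO libraries. How reads shared by such copies were counted is not stated, so the split between Agtr1a and Agtr1b is uncertain. For Agtr1a the separation of the genotypes largely follows from the rule. Agtr1b, which is not in the set and was not tested, also had more counts in every WT library than in any TCKO library. Agtr2, Agt and Ace, the other receptor, the precursor of the ligand and the converting enzyme, each had at most 9 counts in any library.

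Il31ra, the receptor chain for the itch cytokine IL-31, had 93, 122 and 45 counts in the WT libraries against 11, 6 and 7 in the TCKO libraries. It overlaps the pseudogene Gm3226 on the same strand, which had 11 to 25 counts in each library. The IL-31 receptor is completed by Osmr, whose log2 fold change was 0.39 ± 0.09 (SE; edgeR adjusted p = 0.0216), below the fold limit of a call. Il31 itself had 0 counts in every library.

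Tlr1, which pairs with Tlr2 to sense bacterial lipopeptides, had 82, 98 and 19 counts in the WT libraries against 6, 9 and 10 in the TCKO libraries. WT replicate 3 was thus well below the other WT libraries, at 2.29 CPM against 9.75 and 9.63, and only just above the highest TCKO library, at 1.14 CPM. Tlr2 was not called, with a log2 fold change of -0.59 ± 0.29 (SE; edgeR adjusted p = 0.211), nor was the shared adaptor Myd88 (-0.09 ± 0.13, adjusted p = 0.690). Scara5, a scavenger receptor that takes up ferritin, showed a similar spread, with 45, 66 and 20 counts in the WT libraries against 3, 3 and 1 in the TCKO libraries. The ferritin chains Fth1 and Ftl1 were not called, with log2 fold changes of -0.31 and 0.31 (edgeR adjusted p = 0.0713 and 0.313).

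The other receptors were Adgrf5, an adhesion receptor of lung and vessels, Fzd10, a Wnt receptor, and Gpr141, an orphan receptor found in blood cells. Fzd10 had 33, 25 and 26 counts in the WT libraries against 4, 6 and 11 in the TCKO libraries. It was low among the Frizzled genes of these cells, at 3.17 CPM against 89.1 CPM for Fzd8 and 151 CPM for Fzd5 in WT. Of the 6 other Frizzled genes tested, Fzd5 and Fzd8 were also called lower in TCKO (log2 fold changes -1.68 ± 0.10 and -1.03 ± 0.16, SE; edgeR adjusted p = 0.000124 and 0.00513), whereas Fzd1, Fzd2, Fzd4 and Fzd7 were not. Fzd8 was under the fold limit without WT replicate 1 or 2 or TCKO replicate 3 (log2 fold changes -0.92, -0.96 and -0.95).

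Secreted and matrix proteins numbered 4 and were low, at 2.47 to 4.28 CPM in WT. Lama1, the laminin alpha chain of embryonic basement membranes, had 33, 55 and 29 counts in the WT libraries against 8, 7 and 5 in the TCKO libraries. The related Lama2, the alpha chain of muscle basement membranes, went the other way, with 252, 288 and 317 counts in the WT libraries against 811, 645 and 993 in the TCKO libraries (log2 fold change 1.54 ± 0.15, SE; edgeR adjusted p = 0.000696). The other alpha chains tested, Lama4 and Lama5, were not called (log2 fold changes -0.62 and 0.12), nor were the partner chains Lamb1 and Lamc1.

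Ostn, a peptide of bone and muscle also called osteocrin, had 22, 29 and 17 counts in the WT libraries against 9, 13 and 2 in the TCKO libraries, 1 of the smallest differences of the set at 2.61-fold. Its receptor Npr3, which clears natriuretic peptides and at which osteocrin competes with them, had 1486, 1869 and 1609 counts in the WT libraries against 307, 236 and 258 in the TCKO libraries. That was a log2 fold change of -2.59 ± 0.10 (SE; edgeR adjusted p = 2.4e-05), and the genotypes did not overlap. Npr2, the receptor of C-type natriuretic peptide, was lower by 0.41 ± 0.07 on the log2 scale (adjusted p = 0.00784), under the fold limit.

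Bmp5 is a bone morphogenetic protein needed for skeletal shape, and it had 26, 23 and 17 counts in the WT libraries against 8, 10 and 4 in the TCKO libraries. Among the other ligands of the family that were tested, Bmp4 was called lower (1154, 1451 and 551 counts in the WT libraries against 310, 243 and 192 in the TCKO libraries; log2 fold change -2.01 ± 0.31, SE, edgeR adjusted p = 0.00448), and Bmp2, Bmp6 and Bmp7 were not called. Slit1, a repellent of axons, had 28, 36 and 29 counts in WT, and its TCKO counts of 3, 8 and 13 were spread more widely than in most of the set. Its receptors Robo1 and Robo2 were lower by 0.71 ± 0.15 and 0.80 ± 0.22 on the log2 scale (adjusted p = 0.0148 and 0.0392), also under the fold limit, and Slit2 was higher by 0.999 ± 0.20 (adjusted p = 0.0120), just under it.

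Transporters, enzymes and their regulators made up 5 genes and held the strongest of the set. Slc26a7, an anion exchanger of stomach, kidney and thyroid, had 110, 137 and 190 counts in the WT libraries against 5, 2 and 4 in the TCKO libraries. Its mean of 16.5 ± 5.57 CPM (SD, n = 3) in WT against 0.426 ± 0.164 CPM in TCKO gave the highest WT level and, at 38.7-fold, the largest ratio of the set. WT replicate 3 was the highest WT library here, unlike in most of the set. Slc26a2, the sulphate transporter of cartilage in the same family, was lower by 0.43 ± 0.10 on the log2 scale (edgeR adjusted p = 0.0264), under the fold limit.

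Wscd2, a sulphotransferase-like Golgi protein, had 79, 131 and 57 counts in the WT libraries against 6, 7 and 9 in the TCKO libraries. G0s2, an inhibitor of the triglyceride lipase Pnpla2, had 64, 72 and 28 counts in the WT libraries against 10, 8 and 4 in the TCKO libraries. It overlaps Lamb3 on the opposite strand, which had 8, 21 and 15 counts in the WT libraries against 3, 0 and 4 in the TCKO libraries. The lipase Pnpla2 itself was higher in TCKO by 0.42 ± 0.08 on the log2 scale (edgeR adjusted p = 0.0118), under the fold limit. Soat2, which esterifies cholesterol in liver and intestine, had 29, 26 and 31 counts in the WT libraries against 12, 9 and 2 in the TCKO libraries. Its more widely used relative Soat1 was called higher in TCKO (393, 480 and 489 counts in the WT libraries against 843, 759 and 1470 in the TCKO libraries; log2 fold change 1.20 ± 0.22, SE, adjusted p = 0.00954). It lost this call without WT replicate 2 (adjusted p = 0.0514) and, by its log2 fold change of 0.89, without TCKO replicate 3. Cyb5r2, a cytochrome b5 reductase, overlaps Ppfibp2 on the opposite strand, which had 25 to 36 counts in every library of either genotype.

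The scaffold, cytoskeletal, adhesion and GTPase-linked class was the largest, with 9 genes, and held the longest gene and the lowest levels per length, at 0.160 to 0.762 RPKM in WT. Fry, a large scaffold of the NDR kinases, had 49, 44 and 34 counts in the WT libraries against 3, 6 and 10 in the TCKO libraries over 29729 bp of exon. Of its kinases Stk38 and Stk38l and its relative Fryl, none was called. Dchs2 is a giant cadherin whose relative Dchs1 is a ligand of Fat4, and it had 33, 44 and 21 counts in the WT libraries against 5, 5 and 9 in the TCKO libraries. Fat4 was called lower in TCKO (log2 fold change -1.15 ± 0.12, SE; edgeR adjusted p = 0.000855) and Fjx1, a kinase relative of the Four-jointed family, higher (1.09 ± 0.19, adjusted p = 0.00744), while Dchs1 was not called (0.59 ± 0.31, adjusted p = 0.232). Without WT replicate 3 Fjx1 was under the fold limit, at 0.89. The others were Dlg2, a synaptic scaffold, Rtkn2, a GTPase effector, Diras2, a Ras-like GTPase, Myo1g, a myosin of blood cells, Asb2, a ubiquitin ligase adaptor that targets filamins, Gimap6, a GTPase of lymphocytes, and Veph1. The relatives Gimap4 and Gimap8 had 0 counts in every library.

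**Figure D3:**
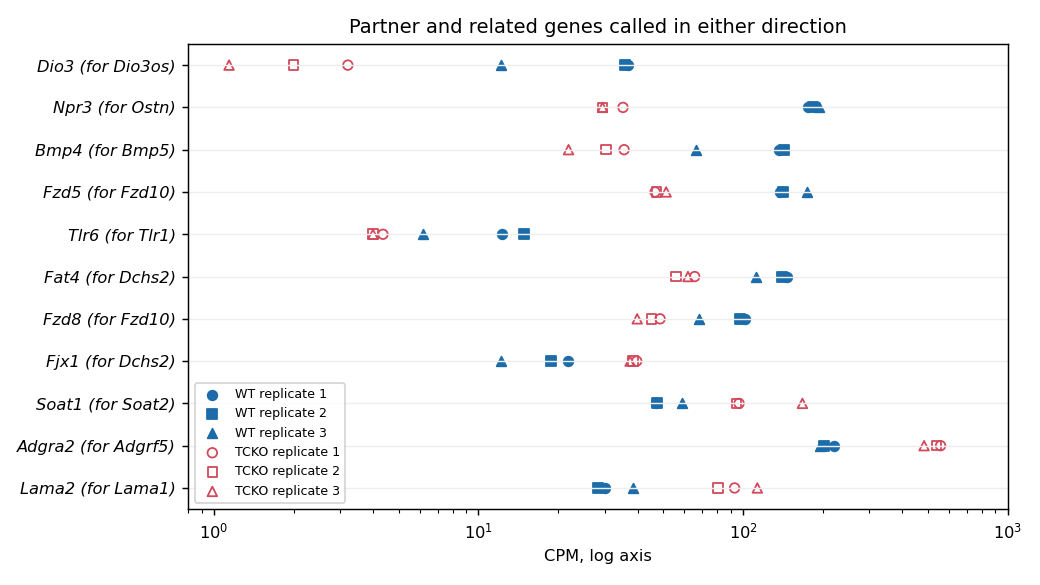
CPM by library, on a log axis, of the 11 genes called in either direction among 69 tested partners and relatives of the 34 genes, each with the gene it belongs to; filled blue symbols are WT, open red symbols TCKO, and the shape gives the replicate. The 7 lower genes run from Dio3 to Fzd8 and the 4 higher ones from Fjx1 to Lama2.

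A single transcription factor was in the set. Erg, an ETS factor of endothelium and of cartilage, had 23, 44 and 39 counts in the WT libraries against 6, 2 and 8 in the TCKO libraries, and its relatives Fli1, Ets1 and Ets2 were not called. Of the 69 partners and relatives tested in all, 7 (10.1%) were called lower and 4 (5.80%) higher in TCKO, against a background of 3.19% and 3.16% of all tested genes. Most of them were chosen after their values were seen, so these shares cannot be read as a result about partners. Dio3 and Tlr6 are also counted among the neighbouring genes below. When replicates 1 and 2 were summed, 3 of the 69 were called lower and 2 higher. Dio3, Bmp4, Fzd8, Fjx1, Soat1 and Tlr6 then lost their call (edgeR adjusted p = 0.0568, 0.0776, 0.0884, 0.0834, 0.0885 and 0.182). The 4 genes of little-known function were Luzp2, Wdr95, Hrct1 and Prrt4. Luzp2 had 90, 110 and 53 counts in the WT libraries against 5, 5 and 11 in the TCKO libraries, and Wdr95 had 46, 49 and 34 in the WT libraries against 3, 4 and 5 in the TCKO libraries.

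The 3 long non-coding RNAs each lay beside or across a coding gene. Dio3os had 23, 41 and 19 counts in the WT libraries against 2, 0 and 2 in the TCKO libraries, the lowest TCKO mean of the set at 0.152 CPM. It starts 0.896 kb from Dio3, on the opposite strand. Dio3, the deiodinase that inactivates thyroid hormone and an imprinted gene, had 308, 364 and 101 counts in the WT libraries against 28, 16 and 10 in the TCKO libraries (log2 fold change -3.76 ± 0.52, SE; edgeR adjusted p = 0.00281). At the other end of the same imprinted cluster Dlk1 was not called, with counts of 112, 127 and 370 in the WT libraries against 315, 252 and 1483 in the TCKO libraries (log2 fold change 1.73 ± 0.74, adjusted p = 0.152). The non-coding Meg3, Rian and Mirg of the cluster were not called either, with log2 fold changes of 0.26, 0.37 and 0.32.

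Gm26633 had 40, 39 and 48 counts in the WT libraries against 7, 6 and 3 in the TCKO libraries. It starts 0.160 kb from Acan on the opposite strand. Acan, the main proteoglycan of cartilage, had 2335, 2690 and 2943 counts in the WT libraries against 493, 379 and 321 in the TCKO libraries (log2 fold change -2.70 ± 0.18, SE; edgeR adjusted p = 0.000129). In both of these divergent pairs the coding gene was far more abundant than its non-coding partner, at 28.2 CPM for Dio3 and 299 CPM for Acan in WT. Pard3bos3 lies within Pard3b on the opposite strand and had 18, 32 and 19 counts in the WT libraries against 8, 4 and 3 in the TCKO libraries. Pard3b had 121, 129 and 60 counts in the WT libraries against 77, 66 and 62 in the TCKO libraries. The sources do not say whether reads were counted by strand, so counts of genes that overlap cannot be fully told apart.

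The genes were spread over 16 chromosomes, with 5 on chromosome 5, 4 each on 7 and 13, and none on 2, 8 or 18. Wdr95 and Fry, on chromosome 5, were the only pair within 1000 kb of each other, 507 kb apart. The 3 tested genes between them were not called, namely Hsph1 (log2 fold change -0.54 ± 0.11, SE; edgeR adjusted p = 0.0168), Gm5566 (0.07 ± 0.09, adjusted p = 0.663) and B3glct (-0.33 ± 0.12, adjusted p = 0.0991). No gene of the set was the next tested gene to another, and the next closest pair was 6919 kb apart.

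The genes next to the set were not chosen by their own genotype difference, but they were measured in the same libraries that chose the set. The part of a different mix of cells in their differences was not tested. The nearest tested gene on each side gave 68 neighbours, a median of 78.9 kb away, and 4 of them overlapped a gene of the set. Of these, 11 (16.2%) were called lower in TCKO and 1 (1.47%) higher, against 3.19% lower and 3.16% higher among all tested genes. Only 5 were called lower with replicates 1 and 2 summed, where Dio3, Reck, Isg20, Sfrp2, Tlr6 and Ptx3 lost their call (edgeR adjusted p = 0.0568 to 0.208). Their median log2 fold change was -0.19, against 0.00 over all tested genes, and 45 (66.2%) had a negative value, against 49.98%. Of the 40 neighbours within 100 kb, 8 were called lower and 0 higher (median log2 fold change -0.45). Of the 28 farther away, 3 were called lower and 1 higher (median -0.12). With the genes within 5 kb left aside, 8 of 57 were called lower. The neighbours of the 56 genes of the opposite rule went the other way, with 13 of 107 called higher, 3 lower, and a median of 0.15. Adjacent genes share their surroundings and may be transcribed together, so these counts were not tested against chance.

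**Figure D4:**
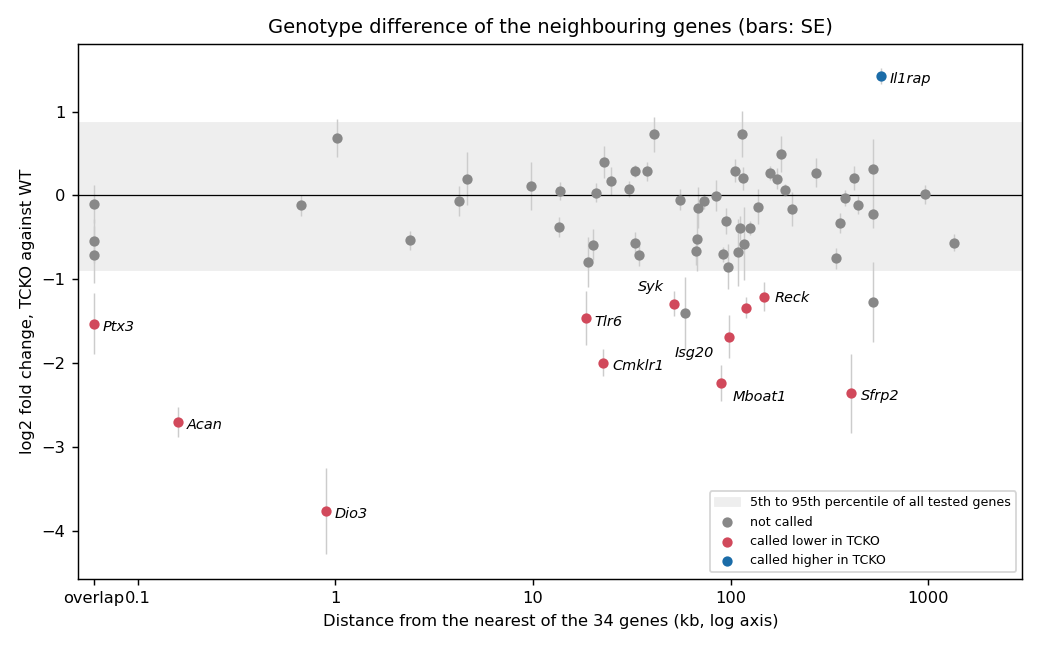
Log2 fold change of TCKO against WT with its SE for the 68 neighbouring genes, against their distance in kb from the gene of the set on a log axis, with overlapping genes at the left edge; the grey band spans the 5th to 95th percentile of all tested genes (-0.89 to 0.87). The genes called lower (red) lie from the overlapping Ptx3 to Sfrp2 at 409 kb, and Il1rap, 577 kb from Ostn, is the one called higher (blue).

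Acan and Dio3 were the closest called neighbours apart from Ptx3. Cmklr1, the chemerin receptor, 22.6 kb from Wscd2, had 286, 327 and 226 counts in the WT libraries against 60, 58 and 86 in the TCKO libraries (log2 fold change -1.99 ± 0.16, SE; edgeR adjusted p = 0.000336). Mboat1, a lysophospholipid acyltransferase 89.7 kb from Agtr1a, had 98, 123 and 125 in the WT libraries against 18, 25 and 28 in the TCKO libraries (-2.24 ± 0.21, adjusted p = 0.000616). In both genes each WT library was above each TCKO library.

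Syk, a tyrosine kinase of blood cells 51.9 kb from Diras2, had a log2 fold change of -1.29 ± 0.15 (SE; edgeR adjusted p = 0.00130), Reck, a membrane inhibitor of metalloproteinases 147 kb from Hrct1, -1.20 ± 0.17 (adjusted p = 0.00304), and Isg20, an exonuclease 97.7 kb from Gm26633, -1.69 ± 0.26 (adjusted p = 0.00435). Sfrp2, a secreted Wnt modulator 409 kb from Dchs2, had -2.36 ± 0.47 (adjusted p = 0.0131), with 214 counts in WT replicate 3 against 787 and 906. Tlr6, the neighbour of Tlr1 in the same receptor family at 18.5 kb, had 103, 151 and 51 counts in the WT libraries against 38, 32 and 35 in the TCKO libraries (-1.47 ± 0.32, adjusted p = 0.0188). Ptx3, a secreted pentraxin that overlaps Veph1 on the opposite strand, had -1.53 ± 0.36 (adjusted p = 0.0242) at 1404 CPM in WT, while Veph1 was at 2.29 CPM.

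Sfrp2, Tlr6 and Ptx3 lost their call when single libraries were left out. For Sfrp2 these were WT replicate 2 (adjusted p = 0.0544) and TCKO replicate 1 (0.0518), and for Tlr6 and Ptx3 they were replicates 1 and 2 of either genotype (0.0636 to 0.0741 and 0.0725 to 0.0824). Il1rap, the shared chain of interleukin-1 receptors, was the 1 neighbour called higher, with 179, 229 and 208 counts in the WT libraries against 530, 483 and 595 in the TCKO libraries (1.43 ± 0.09, edgeR adjusted p = 0.000127). It lies 577 kb from Ostn.

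Gene size and CpG content were read from the annotation and did not enter the rule, but both go with expression level. Beside the set stand the 3967 genes within its WT range (2.29 to 16.5 CPM). These were not matched to it in level, with a median of 7.85 CPM and 26.8% under 5 CPM against 3.42 CPM and 76.5% in the set, and the part of level in the differences of span and CpG content was not tested. The genes spanned a median of 60.4 kb of genome against 18.3 kb, and 10 of 34 (29.4%) spanned over 100 kb against 13.0%. Dlg2 was the longest at 1973 kb and G0s2 the shortest at 1.06 kb. Exon length differed little, at a median of 3784 bp against 3652 bp. Protein-coding genes were 31 of 34 (91.2% against 84.1%) and long non-coding RNAs 3 (8.82% against 4.84%), and 2 genes, Fzd10 and Hrct1, had a single exon.

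The first transcribed bases of most of the genes held few CpG. In the first 300 transcribed bases, the number of CpG over the number expected from the C and G content had a median of 0.392 (quartiles 0.288 and 0.546), against 0.652 for the genes within the WT range and 0.735 for all 11792 genes. A value over 0.6, a common limit for CpG islands, was reached by 8 of 34 (23.5%), against 55.9% and 66.9%. The 8 were Dio3os (1.06), Fzd10 (1.03), Rtkn2 (0.845), Slit1 (0.844), Lama1 (0.772), Luzp2 (0.694), Dchs2 (0.685) and Tlr1 (0.668), and the lowest were Dlg2 (0.145) and Bmp5 (0.162). Tlr1 was over 0.6 in its first transcribed bases although the promoter printed above held 3 CG, and the promoter window of Luzp2 was likewise lower, at 0.392. The reverse held for Erg (0.941 in the promoter window against 0.348), Prrt4 (0.753 against 0.572) and Gm26633 (0.688 against 0.463). The first transcribed bases thus do not stand for the promoter in every gene.

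**Figure D5:**
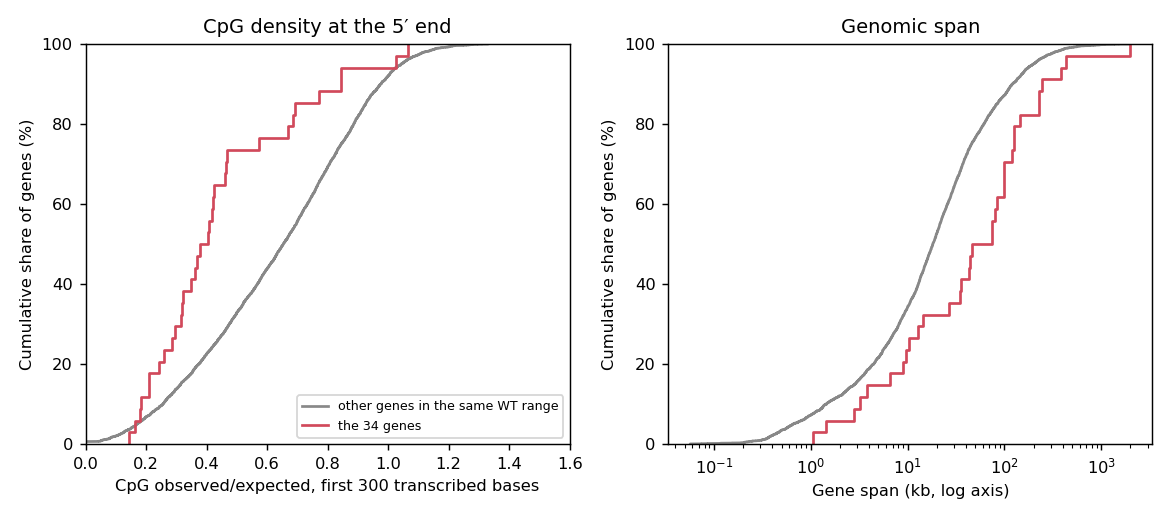
Cumulative share of genes, in percent, by observed over expected CpG of the first 300 transcribed bases (left) and by genomic span in kb on a log axis (right), for the 34 genes (red) and the other genes in their range of WT levels (grey). The red curve lies at lower CpG values on the left, with a median of 0.392, and at larger spans on the right, with a median of 60.4 kb.

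RefSeq promoter windows were found for 22 of the 34 genes (64.7%), too few for a comparison of promoter content with other genes, which is therefore void. Within those 22 the number of CG per window ran from 2 to 53 with a median of 7. The windows of Dlg2, Fry and Il31ra belong to starts far inside the deposited gene.

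Replicate 3 weighed on the set through both limits. Each WT library had to pass, and without WT replicate 3 the rule was met by 58 genes, with 0 of the 34 lost. The rule used these WT levels, so the shares that follow are a description. WT replicate 3 was the lowest WT library in 20 of 34 genes (58.8%), against 39.8% of the 11792 genes and 35.8% of the 3967 within the WT range. It was the highest in 7 (20.6%, against 42.5% and 42.7%). It was under 0.5 times the mean of the other WT libraries in 4 genes (11.8%, against 1.03% and 1.87%), which were Tlr1, Scara5, G0s2 and Il31ra. With replicates 1 and 2 of each genotype alone, 60 genes met the rule, among them 26 of the 34 and Trp63. The 8 that dropped out were Adgrf5, Asb2, Bmp5, G0s2, Il31ra, Myo1g, Ostn and Soat2. The same 8 were lost when TCKO replicate 3 alone was left out, so they met the TCKO limit only with that library. In TCKO, replicate 1 was the highest library in 18 of the 34 and replicate 3 the lowest in 15.

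Marker genes of other cell types that calvarial digests can hold moved between the genotypes as well. Of 21 tested cartilage genes, 17 were called lower in TCKO and 1, Prg4, higher, with a median log2 fold change of -2.09. Their summed level was 7479 to 9298 CPM in WT and 1035 to 1359 CPM in TCKO, without overlap. It was largely that of Col2a1, with means of 6374 CPM in WT and 743 CPM in TCKO. Col2a1, the main collagen of cartilage, had 50301, 57398 and 62192 counts in the WT libraries against 7387, 6215 and 5332 in the TCKO libraries (log2 fold change -3.13 ± 0.17, SE; edgeR adjusted p = 9.7e-05). Acan, the partner of Gm26633, is on this list, and Erg and Bmp5 are also used in cartilage. Prg4 lost its call without WT replicate 1 or 2 or any TCKO library (adjusted p = 0.0705 to 0.160), Matn1 and Ucma without any of several libraries (0.0504 to 0.140), and Sox9 fell to -0.94 without WT replicate 1. Summing replicates 1 and 2 took the call from these 4 and from Cnmd, Col9a1, Col10a1, Comp, Hapln1 and Matn4 (edgeR adjusted p = 0.0541 to 0.236). Of the 34 genes none was on the cartilage list, and the part of cartilage-like cells in their difference was not tested.

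Blood cell markers were lower in part. Of 16 tested, Csf1r, Adgre1 and Itgam, the receptor and surface markers of macrophages, were called lower (log2 fold changes -1.21, -1.44 and -1.08; edgeR adjusted p = 0.0253, 0.01004 and 0.0279), and Mcpt8, a protease of basophils, was called higher (4.85, adjusted p = 0.000127). Csf1r lost its call without replicate 1 or 2 of either genotype (adjusted p = 0.0529 to 0.0955) and, by its log2 fold change of -0.99, without TCKO replicate 3, and Itgam lost it without WT replicate 1 or 2 or any TCKO library (0.0540 to 0.113). Csf1r, Adgre1 and Itgam all lost it with replicates 1 and 2 summed (0.187, 0.0796 and 0.207). The summed level of the list, 441 to 819 CPM in WT and 209 to 662 CPM in TCKO, overlapped between genotypes and was lowest in replicate 3 of each. It was largely that of Lyz2, which was not called, with means of 505 CPM in WT and 360 CPM in TCKO. Ptprc, the common leukocyte antigen, had 33, 40 and 16 counts in the WT libraries against 17, 12 and 8 in the TCKO libraries, and Cpa3 and Hbb-bs were at 0 in every library. Tlr1, Gpr141, Myo1g and Gimap6 are known from blood cells, and the part of such cells in their difference was not tested.

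Endothelial markers were mostly too low to be tested, namely Pecam1, Cdh5, Tek, Tie1, Emcn, Sox17 and Sox18. Pecam1 and Cdh5, which define endothelium, were at 7 counts or fewer in each library, and Tek, the angiopoietin receptor, had 8, 6 and 6 counts in the WT libraries against 2, 2 and 4 in the TCKO libraries. Of those tested, Kdr, Flt1 and Esam were called higher in TCKO (log2 fold changes 6.12, 2.02 and 2.47; edgeR adjusted p = 0.00112, 0.00336 and 0.0238). Of the pericyte genes, Cspg4 was called lower (-1.04, adjusted p = 0.0459), and Rgs5 and Pdgfrb were not called. Esam lost its call without WT replicate 1 or 2 (adjusted p = 0.0721 and 0.0803), and Cspg4 without any WT library or TCKO replicate 1 or 2 (0.0649 to 0.149). Flt1, Esam and Cspg4 lost it with replicates 1 and 2 summed (0.0710, 0.110 and 0.213). The summed level of that list, largely Pdgfrb and Cspg4, was 627 to 674 CPM in WT and 387 to 464 CPM in TCKO. The part of endothelial cells in the differences of Erg and Adgrf5 was not tested.

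Over all 13 marker lists, 142 genes outside the set were tested, of which 33 (23.2%) were called lower and 13 (9.15%) higher. Over all tested genes the shares were 3.19% and 3.16%. The cartilage list gave 17 of the lower calls and Trp63 gave 1, and the lists were chosen with earlier results known. The counts over all lists were 14 lower and 3 higher with replicates 1 and 2 summed. Erg was the one gene of the set on a list. Of 14 osteoblast and osteocyte genes, Alpl and Omd were called lower (log2 fold changes -3.54 and -3.49; edgeR adjusted p = 0.00743 and 0.00151) and Spp1 higher (2.62, adjusted p = 0.00669). Of 22 imprinted genes, Plagl1, Zim1, Mest and Dio3 were called lower and Nnat higher, and of 34 limb and craniofacial factors 2 were called lower (Pax9 and Foxc2) and 3 higher, among them Lhx6 and Emx2. Of 6 tendon genes Fmod and Tnmd were called lower, of 7 muscle genes Acta1 higher, of 6 glial and neuronal genes S100b lower and Stmn2 higher, and of 4 adipocyte genes none. Of these, Emx2 lost its call without WT replicate 1 or 2 or TCKO replicate 2 (edgeR adjusted p = 0.0529 to 0.0702), Foxc2 without any WT library or TCKO replicate 1 or 2 (0.0747 to 0.125), and Tnmd without replicate 1 or 2 of either genotype (0.0531 to 0.0575) and, by its log2 fold change of -0.99, with the replicate number as a block. In the fit with replicates 1 and 2 summed, the call was lost by Alpl (edgeR adjusted p = 0.0654), Spp1 (0.123), Mest (0.145), Nnat (0.0559), Pax9 (0.0965), Acta1 (0.0870) and Stmn2 (0.0697), and by Dio3, Foxc2, Lhx6, Emx2 and Tnmd (0.0568 to 0.234). The germline list, whose genes are often methylated at their promoters in body cells, had no gene high enough to be tested.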

How the data were processed

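Primary calvarial osteoblasts of WT and TCKO mice were profiled by RNA-seq, with 3 libraries per genotype, grouped and numbered by the sample titles. The kit was strand-specific. The authors aligned reads to GRCm38 (Ensembl annotation) with STAR 2.7.0e and deposited raw read counts per gene, made with featureCounts 2.0.0, beside exon lengths. The submitters' notes also name CASAVA and DESeq2. Whether counting used strand, and how shared reads were treated, is not given in the sources used here.

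Membership was computed from the deposited counts as CPM of column totals. The members, the marker lists and the partner and relative genes were chosen with earlier results of these data known. Members were described by level, class, neighbours and size. The text named Trp63, the 12 members with the highest WT level, members on a list, genes at each limit, called neighbours and listed genes, and Tet1 to Tet3. Other members were named for their role, and those given counts were chosen after their values were seen, as were most of the partner genes, the neighbours Tlr6 and Ptx3, and Col1a1, Sparc and the absent markers.

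Genes were tested with edgeR 4.0.16 (R 4.3.3; filterByExpr, TMM, quasi-likelihood test, all 6 libraries, no covariate), which left 13826 genes. Benjamini-Hochberg adjustment ran over these genes, and a call needed an adjusted p under 0.05 and a fold over 2. The script was tested on simulated counts. Alternatives were RLE and upper-quartile factors, a filter at 1 count or at a mean of 50 counts, DESeq2 1.42.0, a block for the replicate number, and leaving out each library. Replicates 1 and 2 summed, or used alone, were added after seeing the data. Deviations from the group means correlated across genes between libraries of the same number (0.20, 0.21 and 0.35 for numbers 1, 2 and 3). Libraries of different numbers were not compared, and replicate 3 stood apart in both genotypes, so this cannot show that the numbers pair the libraries. The labels name no shared litter or day, and the replicate number entered an alternative fit only. The values of 1 member, the gene next to it and 1 listed gene are not reported here. Gene symbols were found for 99.4% of the 55471 identifiers. Biotypes and transcripts were from GENCODE M21, in which 99.5% of genes had the deposited coordinates. Promoters were from RefSeq (GRCm38.p6).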

Additional observations from a re-analysis of the deposited data

How the results depend on the processing

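The number of genes meeting the rule moved with its limits. It was 6 with a TCKO mean under 0.5 CPM, 11 with every TCKO library under 1 CPM, 159 with 1 CPM and 6 with 5 CPM in each WT library, 10 with limits on RPKM, 76 with the mean WT level at 2 CPM or more, 60 with replicates 1 and 2 only, and 35 to 58 with 1 library left out, the 58 being without WT replicate 3. With TMM-scaled totals it stayed at 34, all shared.

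With replicates 1 and 2 of each genotype summed into 1 library, which leaves 4 libraries, calls fell to 5 lower neighbours, to 14 lower and 3 higher listed genes, and to 3 lower and 2 higher partners and relatives. Tet1 and Tet3 then had log2 fold changes of -1.03 (edgeR adjusted p = 0.0797) and 0.52 (adjusted p = 0.0878). Of the neighbours named, Dio3, Reck, Isg20, Sfrp2, Tlr6 and Ptx3 lost their call in that fit (adjusted p = 0.0568 to 0.208). With replicates 1 and 2 only, 12 neighbours were called lower and 1 higher, and 22 listed genes higher. With 1 library left out, 8 to 11 neighbours were called lower, 25 to 36 listed genes lower and 9 to 17 higher, and 5 to 7 partners lower and 3 to 5 higher. A mean of at least 50 counts left 8 higher listed genes. Among neighbours, 0 were called higher within 100 kb and 2 with the nearest protein-coding genes.

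With the replicate number as a block, 12 neighbours were called lower and 1 higher, 39 listed genes lower and 16 higher, and 7 partners lower and 6 higher, each within 1.5 times of the fit without it. None of the called genes named, nor Tet1, Tet2 or Tet3, turned its sign under these alternatives. At 8.02 to 10.2 counts per CPM, a difference of a few counts moves a gene across either limit.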
